A study of Rattus norvegicus with 24 samples.

Results

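The comparison set all 18 pups of dams given a prenatal insult (6 Low Protein, 6 MAM and 6 Poly I:C) against the 6 pups of Saline dams, and asked which genes of the fetal neocortex and hippocampus differed from Saline in the same way under insults that act through unlike routes. These 24 pups are all 24 samples of the series, each treatment counted with equal weight, and 9713 of the 17420 genes in the table had a mean of at least 0.1 TPM (a transcript level scaled to gene length and to the library total) in every group. The pups were taken from Sprague-Dawley rats on embryonic day 18, 3 from each of 2 litters per group. MAM dams received methylazoxymethanol acetate at a dose of 22 mg/kg on gestational day 17, Poly I:C dams received polyinosine:cytosine at a dose of 7.5 mg/kg on the same day, and Saline dams received saline. Dams of these groups were killed 18 hours after the injection. Low Protein dams ate a diet with 6.1% protein from gestational day 11 to 18, against 20.3% in the isocaloric control diet. The sources used here do not give the diet of the injected dams, nor any injection of the Low Protein dams. The dam received the treatment, so a p-value over pups counts littermates as separate samples, and 2 litters per group limit each group as a model.

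On embryonic day 18 the rat cortex is still making neurons. Radial glia in the ventricular zone produce intermediate progenitors and excitatory neurons, while inhibitory interneurons are born in the ganglionic eminences of the ventral forebrain and migrate into the cortex. MAM methylates DNA and kills or arrests dividing cells. Poly I:C mimics double-stranded viral RNA and sets off an innate immune response in the dam, and a diet poor in protein limits the amino acids that reach the fetus. All 3 are used in rats as developmental models of schizophrenia.

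The markers of the labelled tissue were detected. In Saline pups the cortical neuron factors Neurod6 and Neurod2 averaged 90.1 and 82.6 TPM, and the summed level of 6 thalamic markers stayed at or under 6.68 TPM in all 24 pups. The deposited values appear scaled to the genomic span of each gene, so levels of different genes do not rank their transcripts. The estimated depth, which is approximate, ranged from 24.97 to 64.90 M reads per pup (M, mega), with group medians of 33.97 in Saline, 30.73 in Poly I:C, 42.48 in MAM and 44.25 in Low Protein. Poly I:C 1-3 and Saline 2-1 (litter, then pup) lay farthest out on the first and the third principal component. In Saline 2-1 the summed level of 16 ventral forebrain and interneuron genes was 242 TPM, against 171 TPM in the next Saline pup, and the summed level of 12 neocortex and hippocampus genes was 221 TPM, against a Saline median of 357 TPM. The Y-linked gene Eif2s3y was above 0.1 TPM in 4 pups of Low Protein, 4 of MAM, 2 of Poly I:C and 2 of Saline, so the sexes were not balanced between the treated pups and Saline.

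With all pups, no gene separated the 18 treated pups from the 6 Saline pups after correction over all genes. With limma on log2(TPM + 0.01), 0 of 9713 genes (0.0%) passed an adjusted p of 0.05 in the pooled contrast, and the lowest adjusted p was 0.246. The count rested on Poly I:C litter 1, without which 9 genes passed, namely Aacs, Aloxe3, Dnase2, Ece2, Hes7, Kpna2, Psd2, Sh3yl1 and Wdr60. In that fit Poly I:C was 3 littermates of 1 dam. At an unadjusted p under 0.05 there were 875 genes, against 485.65 that a threshold of 5% gives by its construction, and these are weak single-gene differences and not calls. Of the genes tested, 2.37% (230) were higher and 6.64% (645) were lower than Saline at that threshold, so that 26.3% of the 875 were higher. That share depended on how the pups were scaled and was 44.8% with median-of-ratios scaling, 41.4% with upper-quartile scaling and 45.1% after a curve on gene span had been subtracted. It was 40.4% without Saline 2-2. The differences were small. The median absolute difference over all genes was 0.057 on the log2 scale, with a median standard error of 0.075, and over the 875 genes it was 0.20. No gene had all 18 treated pups outside the range of the 6 Saline pups. The closest was Aacs, with 17 of 18 treated pups below every Saline pup, and at most 15 of 18 lay above.

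The 12 genes with the lowest unadjusted p on the higher side included genes of mitochondria, lysosomes and the cell cycle. Mrpl55 encodes a protein of the large mitochondrial ribosomal subunit. Its level ran from 3.82 to 4.75 TPM with a median of 4.28 in Saline, from 4.46 to 5.45 TPM (median 5.19) in MAM, from 4.71 to 5.14 TPM (median 4.93) in Poly I:C and from 4.99 to 5.40 TPM (median 5.28) in Low Protein. All 6 Low Protein pups and 15 of 18 treated pups in total lay above every Saline pup, and the 3 lowest treated pups were inside the Saline range. The pooled difference was 0.25 ± 0.049 (log2, SE, limma adjusted p = 0.246, exact permutation over pups p = 0.000141). Each treatment gave a like value, 0.24 in MAM, 0.21 in Poly I:C and 0.30 in Low Protein. Here and below, permutation p-values are not corrected over genes, and they belong to genes chosen by a low p over the same pups.

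Tkfc, which encodes a kinase of dihydroxyacetone and glyceraldehyde, ran from 0.376 to 0.441 TPM with a median of 0.424 in Saline and from 0.401 to 0.575 TPM with a median of 0.506 in the treated pups, with 15 of 18 above the Saline range. Ap5s1, a subunit of the AP-5 adaptor complex of late endosomes, ran from 0.847 to 1.01 TPM with a median of 0.926 in Saline against 0.930 to 1.56 TPM with a median of 1.19 in the treated pups, and its pooled difference of 0.36 ± 0.091 was 0.40 in MAM, 0.37 in Poly I:C and 0.32 in Low Protein. The Mediator subunit gene Med27 also had 15 of 18 treated pups above Saline, although its level was close to the filter, with 0.0955 to 0.111 TPM (median 0.104) in Saline and 0.106 to 0.135 TPM (median 0.120) in treated pups. The groups of these genes overlapped in every case.

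Further genes on the higher side act in lysosomes and in dividing cells. The lysosomal nuclease gene Dnase2 had a pooled difference of 0.22 ± 0.063, and the lysosomal protease gene Ctss 0.29 ± 0.076. Kpna2, an importin that carries proteins into the nucleus and is abundant in dividing cells, ran from 4.11 to 4.83 TPM with a median of 4.43 in Saline and from 4.52 to 5.85 TPM with a median of 4.98 in treated pups, a difference of 0.19 ± 0.052. The cyclin-dependent kinase partner Cks2 gave 0.21 ± 0.057. The one-carbon enzyme gene Shmt1 gave 0.29 ± 0.082 and the immunoproteasome subunit gene Psmb9 0.36 ± 0.10, both at Saline means under 0.2 TPM. Accs, at a Saline mean of 0.120 TPM, gave 0.41 ± 0.11. Aen, a p53-induced nuclease gene, completed the 12 with a pooled difference of 0.19 ± 0.048. Its difference was largest in MAM (0.35 in MAM, 0.14 in Poly I:C and 0.079 in Low Protein). The limma F test among treatments did not pass for it (adjusted p = 0.0579). None of the 12 passed correction, with limma adjusted p-values of 0.246 to 0.484.

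On the lower side, Hes7 had the lowest p. Hes7 is a transcriptional repressor of the Hes family, whose members act downstream of Notch receptors and keep progenitors from differentiating. Its level ran from 1.13 to 1.70 TPM with a median of 1.37 in Saline, 0.896 to 1.33 TPM (median 1.12) in MAM, 0.756 to 1.25 TPM (median 0.919) in Poly I:C and 0.679 to 1.03 TPM (median 0.793) in Low Protein. All 6 Low Protein pups and 15 of 18 treated pups lay under the Saline range. The pooled difference was -0.54 ± 0.11 (limma adjusted p = 0.246, exact permutation over pups p = 0.000513). Against Saline alone, Hes7 fell in Low Protein by 0.76 ± 0.13 on the log2 scale, which passed with a limma adjusted p of 0.0468, while MAM and Poly I:C gave -0.31 and -0.56 and did not pass. The test for a difference among the treatments gave an adjusted p of 0.185 for it.

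Aacs encodes the cytosolic enzyme that turns the ketone body acetoacetate into acetoacetyl-CoA for sterol and fatty acid synthesis. It ran from 1.16 to 1.46 TPM with a median of 1.24 in Saline, 0.914 to 1.14 TPM (median 1.02) in MAM, 0.884 to 1.24 TPM (median 1.08) in Poly I:C and 0.867 to 1.12 TPM (median 0.983) in Low Protein, and the single treated pup inside the Saline range was a Poly I:C pup. The pooled difference was -0.30 ± 0.062 (limma adjusted p = 0.246, exact permutation over pups p = 4.46e-05). That permutation p is not corrected for the choice of Aacs by its low p over these pups. All 6 treated litters had a lower mean than both Saline litters, as in 6.75% of all genes tested. The exact permutation p over litters is 0.0357, the smallest that 28 splits of 8 litters can give.

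Aldh1b1, a mitochondrial aldehyde dehydrogenase gene, ran from 3.28 to 3.84 TPM with a median of 3.67 in Saline and 2.72 to 3.57 TPM with a median of 3.11 in treated pups, with 14 of 18 under the Saline range and a pooled difference of -0.22 ± 0.047. The adenosine A1 receptor gene Adora1 ran from 0.190 to 0.233 TPM with a median of 0.219 in Saline and 0.104 to 0.209 TPM with a median of 0.171 in treated pups, and 15 of 18 lay under Saline. Lysmd2 had the same count of 15 of 18, at 0.473 to 0.607 TPM (median 0.492) in Saline and 0.347 to 0.482 TPM (median 0.417) in treated pups. In each of these genes some treated pups overlapped Saline.

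Others of the 12 on the lower side were of mixed function. The lysosomal sialidase gene Neu1 gave -0.34 ± 0.087, the pro-apoptotic Bcl-2 family gene Bid -0.20 ± 0.051, and the chemokine gene Cxcl14 -0.43 ± 0.11. The complex I assembly factor gene Ndufaf6 gave -0.30 ± 0.071, the telomere helicase gene Rtel1 -0.38 ± 0.10, and Tmem79 -0.42 ± 0.097. Limma adjusted p-values on this side were 0.246 to 0.484. In 10 genes, Aacs among them, at least 16 of 18 treated pups lay under the Saline range, and another pair of these was picked after the values were seen. Dusp1, a phosphatase that switches off MAP kinases, had 16 of 18 under the Saline range at a difference of -0.13 ± 0.037, and Psd2 had 16 of 18 at -0.17 ± 0.049.

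**Figure D1:**
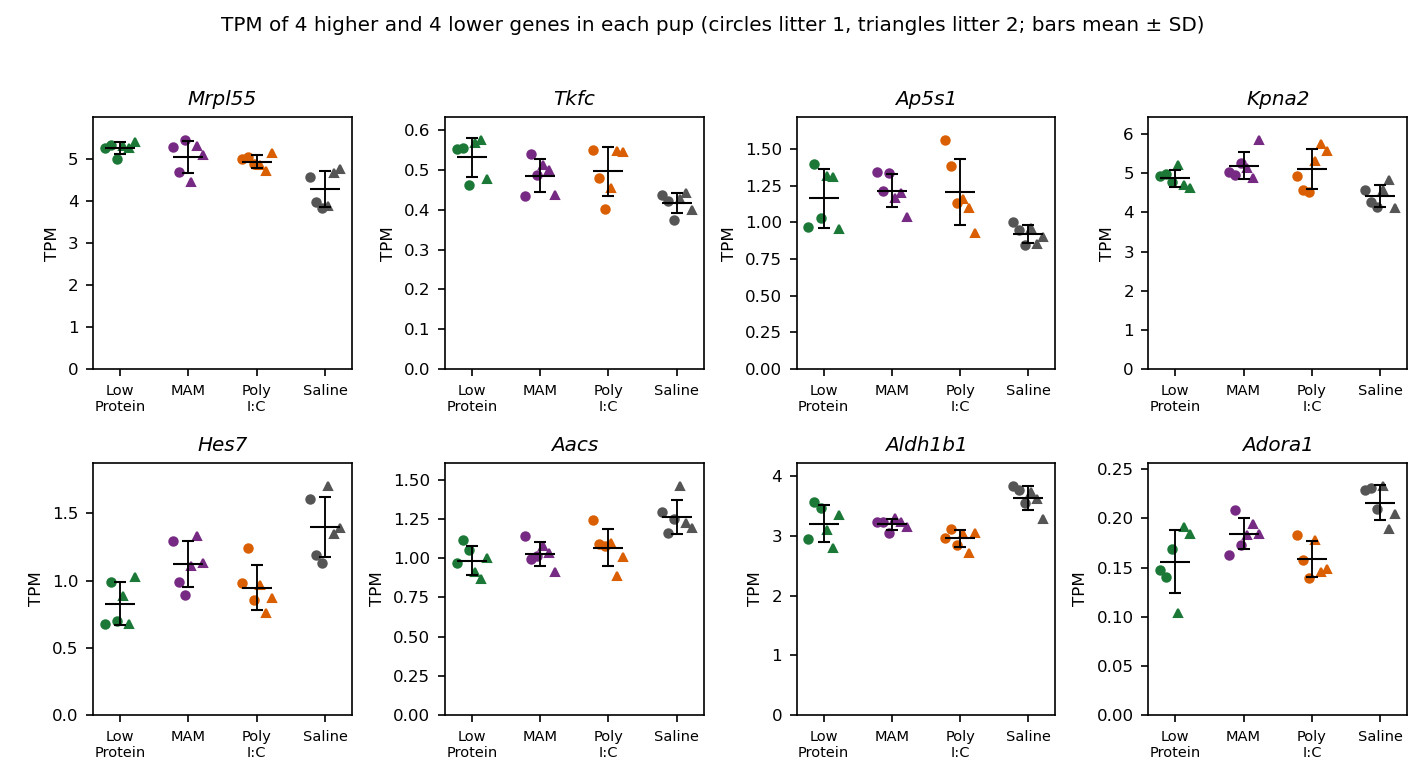
Level in TPM (vertical axis, from 0) of 4 genes higher and 4 genes lower than Saline in each of the 24 pups by group; circles are litter 1, triangles litter 2, and black bars the group mean ± SD (n = 6). The groups overlap in every gene: at most 17 of 18 treated pups (Aacs) lie outside the Saline range, and none of the 8 genes passed correction.

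Direction was read in each treatment separately. Of the 230 genes higher at the unadjusted threshold, 224 had a positive difference in MAM, 228 in Poly I:C and 229 in Low Protein, and of the 645 lower genes 642, 645 and 643 had a negative one. These counts follow in large part from the way the genes were chosen, since the pooled value is the mean of the 3 and all 3 share the same 6 Saline pups. The median difference of the 230 genes was 0.17 in MAM, 0.20 in Poly I:C and 0.19 in Low Protein, and that of the 645 genes was -0.19, -0.21 and -0.22. Each treatment set against Saline alone gave few calls. Low Protein had 2 (0.0206% of genes tested), namely Hes7 and a gene known only by a locus name, and MAM had 2 (0.0206%), Cdkn1a and Aen, which both rose. Poly I:C had 0 (0.0%). With its litter 1 left out, 283 of 9713 genes passed in Poly I:C against Saline. That fit held 3 Poly I:C littermates of 1 dam, so dam and treatment cannot be told apart in it.

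Litters were also compared. All 6 treated litter means lay above both Saline litter means in 183 genes (1.88%) and below both in 656 genes (6.75%). With 28 splits of the litters, random labels would give each direction in a share of 0.0357 of genes. The higher count lay under that share and the lower count above it. Among the genes named above for their low p, Dnase2 and Rtel1 were the ones whose litter means overlapped. With litter means as the samples, limma called 2 genes in the pooled contrast. They were the Y-linked Eif2s3y and Ddx3, a symbol that RefSeq gives to an autosomal gene and also lists as an older name of the Y-linked Ddx3y, and the sexes were unequal between the groups.

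Lists of genes by function are described here by counts and medians, without a test of the list. The median difference of all genes tested was -0.063 in MAM, 0.0099 in Poly I:C and -0.010 in Low Protein, and -0.018 in the pooled contrast. Of the 9713 genes tested, 5780 were under 0 and 3933 above 0, and 6.64% were lower and 2.37% higher at the unadjusted threshold. Without Saline 2-1, 476 of them were lower and 189 higher at that threshold. From the lowest up, the medians were those of ventral forebrain and interneuron, striatal, catecholamine, glutamate and GABA, oligodendrocyte, synaptic, sterol and cytoskeletal genes, and from the highest down those of blood, microglial, neurogenic and mitotic genes.

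**Figure D2:**
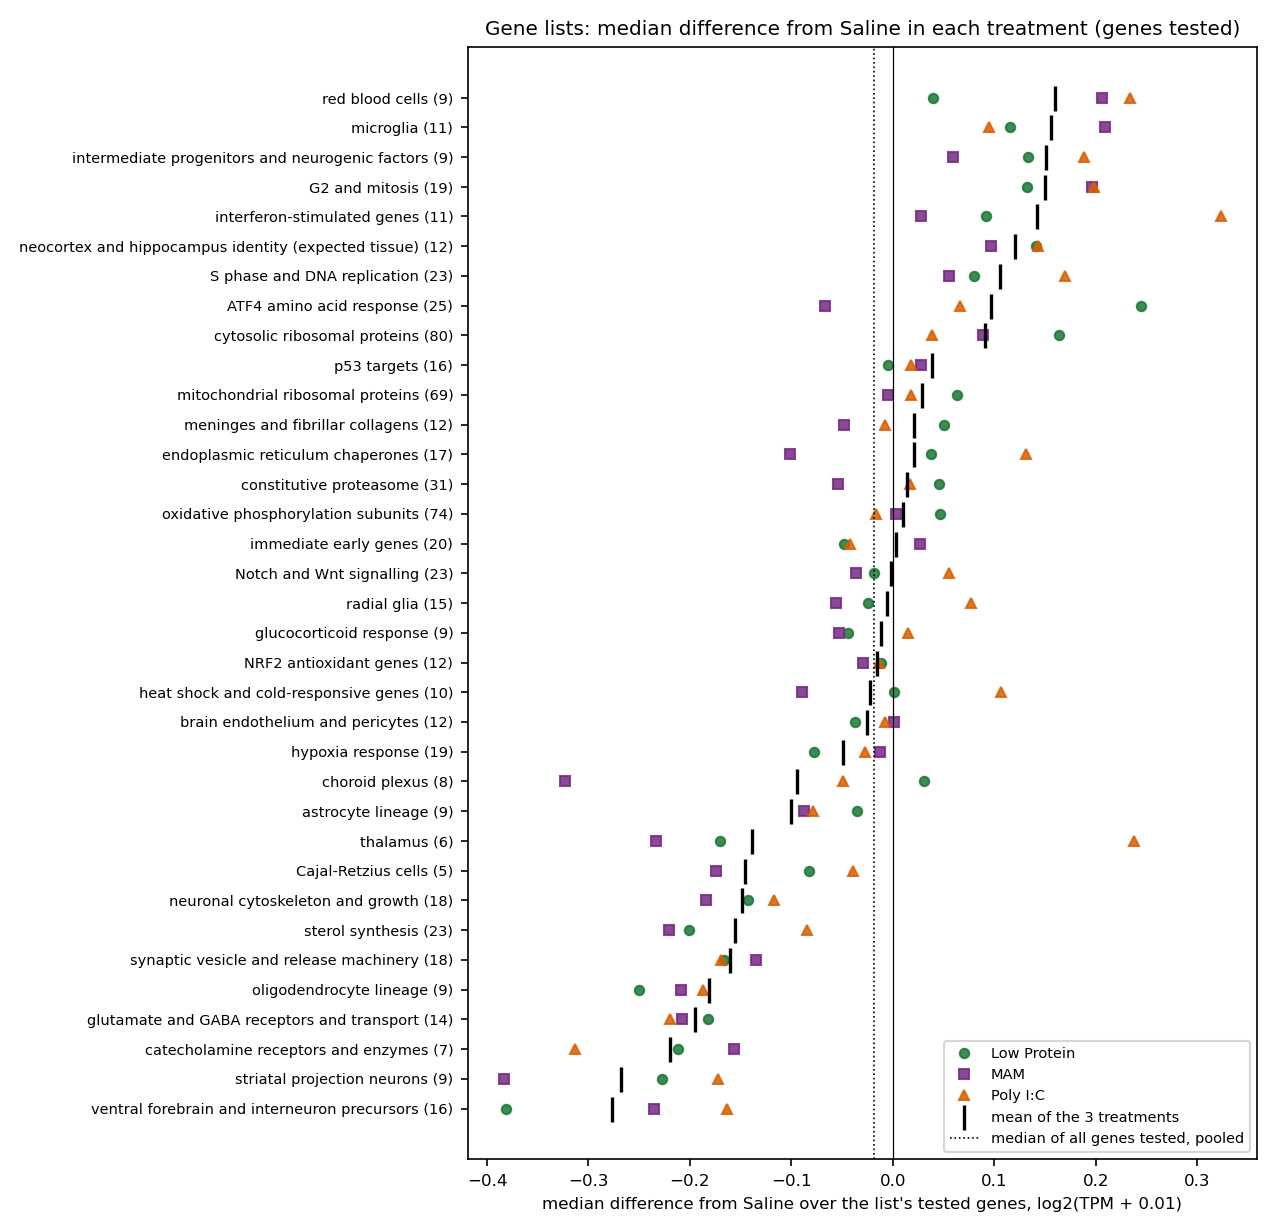
Median difference from Saline (log2 of TPM + 0.01, horizontal axis) of 35 gene lists in each of the 3 treatments. The black bar, labelled as the mean of the 3 treatments, is the median of the pooled differences of the list's genes. The number of tested genes stands in parentheses and the dotted line marks the pooled median of all genes, -0.018. The ventral forebrain list lies lowest at -0.28 and the 3 treatments fall on the same side of 0 in the synaptic, receptor, cytoskeletal, sterol and mitotic lists. Amino acid response and chaperone genes lie on opposite sides of 0 in MAM and in the other treatments. The MAM median of the amino acid response genes, -0.067, is near the -0.063 of all genes in MAM.

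Genes of the ventral forebrain and of interneurons had the lowest list median, -0.28 in the pooled contrast and -0.24 in MAM, -0.16 in Poly I:C and -0.38 in Low Protein. All 16 tested members were under 0, and 8 of 16 were lower at the unadjusted threshold against 6.64% of all genes. Lhx6, the factor that directs interneurons of the medial ganglionic eminence into the cortex, ran from 2.18 to 3.08 TPM with a median of 2.67 in Saline, 1.86 to 2.45 TPM (median 2.05) in MAM, 1.48 to 3.17 TPM (median 2.50) in Poly I:C and 1.55 to 2.48 TPM (median 1.82) in Low Protein, a pooled difference of -0.35 ± 0.12. Of these, 5 of 6 Low Protein and 4 of 6 MAM pups lay under the Saline range, whereas 4 of 6 Poly I:C pups lay in or above it, including the highest level of all 24. Gad1, the enzyme that makes GABA, ran from 1.38 to 2.52 TPM with a median of 1.52 in Saline and 0.685 to 2.00 TPM with a median of 1.28 in treated pups (-0.43 ± 0.16). In Poly I:C its mean was 1.68 TPM in litter 1 and 0.982 TPM in litter 2, against 1.65 and 1.71 TPM in the Saline litters. The homeobox gene Dlx1, which specifies interneurons, gave -0.23 ± 0.093, and Dlx5 -0.25 ± 0.13 (unadjusted p = 0.0647, limma). The neuropeptide gene Sst gave -0.38 ± 0.17 and the vesicular GABA transporter gene Slc32a1 -0.30 ± 0.14.

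That result rested in part on a single Saline pup. Without Saline 2-1, in which these genes were highest, the list median was -0.14 and 1 of 16 members was lower at the unadjusted threshold. Genes of striatal projection neurons, which lie next to the cortex in the ventral forebrain, moved with it, with a median of -0.27 over 9 genes with all pups and -0.11 without Saline 2-1. Neocortex and hippocampus genes had a median of 0.12 with all pups and -0.011 without it. Among these the cortical selector gene Lhx2 ran from 3.57 to 6.84 TPM with a median of 5.92 in Saline and 5.58 to 7.73 TPM with a median of 6.70 in treated pups, the lowest Saline value being that of Saline 2-1, and Emx2 gave 0.19 ± 0.086, whereas Bcl11b, a factor of deep-layer and striatal neurons, gave -0.25 ± 0.10. Whether the dissection of that pup held more ventral tissue was not tested. In bulk tissue, fewer cells of a type and less RNA per cell cannot be told apart.

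**Figure D3:**
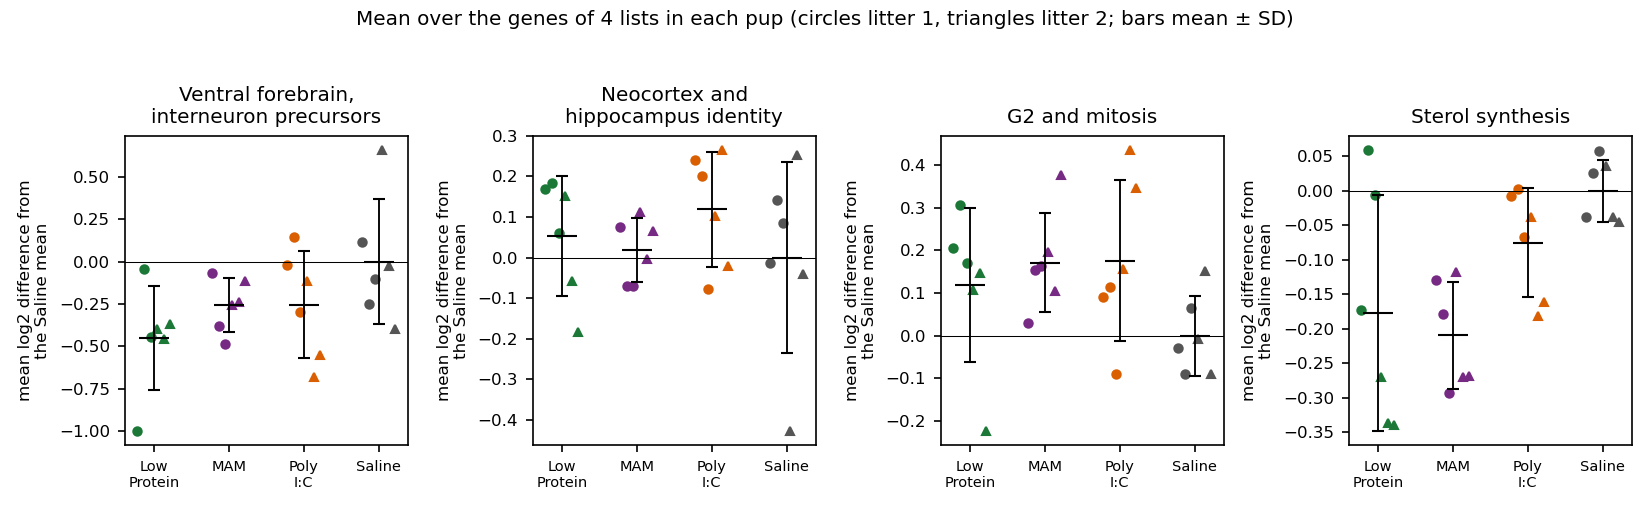
Mean difference from the Saline mean (log2, vertical axis) over the tested genes of 4 lists in each pup; circles are litter 1, triangles litter 2, and bars the group mean ± SD (n = 6). Saline 2-1 stands apart in the ventral forebrain list (0.66) and the cortical list (-0.43) but not in the mitotic or sterol lists, and the 6 Saline pups span -0.045 to 0.058 in the sterol list.

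Synaptic and receptor genes lay on the lower side in each treatment. The 18 genes of synaptic vesicles and release had a median of -0.16 (-0.13 in MAM, -0.17 in Poly I:C and -0.17 in Low Protein). All 18 were under 0 and 8 were lower at the unadjusted threshold, against 6.64% of all genes. The median without Saline 2-1 was -0.16, with 6 of 18 lower. Syp, an integral protein of synaptic vesicles, ran from 13.5 to 15.9 TPM with a median of 14.1 in Saline, 11.6 to 13.9 TPM (median 12.7) in MAM, 9.24 to 13.9 TPM (median 13.1) in Poly I:C and 11.5 to 14.0 TPM (median 12.6) in Low Protein, and 14 of 18 treated pups lay under the Saline range (-0.20 ± 0.069, exact permutation over pups p = 0.00695). Over litters the exact permutation p for Syp was 0.107. Syn1 and Syn2, the synapsins that tether vesicles to actin, gave -0.23 ± 0.087 and -0.31 ± 0.11, and the small GTPase gene Rab3a -0.12 ± 0.049. Vamp2, the vesicle SNARE, gave -0.16 ± 0.065.

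The 14 glutamate and GABA receptor and transport genes had a median of -0.19, and all 14 were under 0. At the unadjusted threshold 7 were lower, against 6.64% of all genes, or 3 without Saline 2-1. Grin1, the obligatory subunit of NMDA receptors, ran from 2.18 to 2.73 TPM with a median of 2.36 in Saline and 1.29 to 2.62 TPM with a median of 2.00 in treated pups, with 14 of 18 under Saline (-0.29 ± 0.10, and -0.17 in MAM, -0.35 in Poly I:C and -0.33 in Low Protein). Slc12a5, the chloride exporter that makes GABA inhibitory as neurons mature, gave -0.38 ± 0.18, and the GABA-B receptor genes Gabbr1 and Gabbr2 -0.17 ± 0.072 and -0.24 ± 0.095. Slc12a2, the importer that precedes Slc12a5 in development, gave -0.00085 ± 0.090.

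Among 7 catecholamine genes, with a median of -0.22, the alpha-2 adrenergic receptor genes Adra2c and Adra2a gave -0.33 ± 0.11 and -0.29 ± 0.12, and Comtd1 -0.22 ± 0.074. Adra2c was farthest from Saline in Poly I:C at -0.52 and nearest in MAM at -0.16, a spread among treatments that did not pass its test (limma adjusted p = 0.295). All 18 genes of the neuronal cytoskeleton were under 0, with a median of -0.15. At the unadjusted threshold 6 were lower, against 6.64% of all genes, or 2 without Saline 2-1. They included the microtubule-binding protein gene Mapt (-0.18 ± 0.071), the growth cone gene Gap43 (-0.19 ± 0.086) and Crmp1 (-0.11 ± 0.047). In the synaptic list the mean difference from Saline was -0.45 and -0.42 in Poly I:C 2-2 and 2-3, and between -0.16 and 0.039 in the other 4 Poly I:C pups. Without Poly I:C litter 1 the counts lower at the unadjusted threshold were 12 of 18 synaptic, 12 of 14 receptor and 15 of 18 cytoskeletal genes, against 7, 4 and 2 without Poly I:C litter 2. The count over all 9713 genes changed as well. It was 1714 without litter 1 and 482 without litter 2, of which 25.5% and 24.5% were higher than Saline. The same background holds for the Poly I:C litter counts of the lists below.

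Sterol synthesis genes, whose products make cholesterol from acetyl-CoA under the control of the SREBP factors, lay on the lower side too. All 23 tested members were under 0, 11 of 23 were lower at the unadjusted threshold against 6.64% of all genes, and the median was -0.16 (-0.22 in MAM, -0.085 in Poly I:C and -0.20 in Low Protein). Without Saline 2-1 the median was -0.14 with 9 of 23 lower, and 7 of 23 were lower without Poly I:C litter 2. With litter means as the samples 2 of 23 were lower, against 438 of 9713 genes. Hmgcs1, an early enzyme of the pathway, gave -0.23 ± 0.077, the squalene synthase gene Fdft1 -0.16 ± 0.054, and Insig1, which holds SREBP in the endoplasmic reticulum, -0.26 ± 0.099. Dhcr7, which makes the last step to cholesterol, ran from 4.38 to 4.75 TPM with a median of 4.55 in Saline, 3.78 to 4.31 TPM (median 4.06) in MAM, 4.02 to 4.59 TPM (median 4.31) in Poly I:C and 3.44 to 4.39 TPM (median 3.80) in Low Protein, a pooled difference of -0.16 ± 0.050 (exact permutation over pups p = 0.00473). In total 15 of 18 treated pups lay under every Saline pup, and the exact permutation p over litters for Dhcr7 was 0.143.

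Genes of dividing cells lay on the higher side. All 19 genes of G2 and mitosis were above 0, 9 of 19 were higher at the unadjusted threshold against 2.37% of all genes, and the median was 0.15 (0.20 in MAM, 0.20 in Poly I:C and 0.13 in Low Protein). Without Saline 2-1 these were 7 of 19 and a median of 0.16, and without Poly I:C litter 2 they were 2 of 19 and 0.10. With litter means as the samples 1 of 19 was higher, against 121 of 9713 genes. Cdc20, the activator of the anaphase-promoting complex, ran from 6.45 to 8.97 TPM with a median of 7.69 in Saline, 8.64 to 10.4 TPM (median 9.48) in MAM, 6.75 to 11.4 TPM (median 8.37) in Poly I:C and 6.84 to 9.35 TPM (median 8.65) in Low Protein, a pooled difference of 0.23 ± 0.089. The mitotic kinesin gene Kif20a gave 0.20 ± 0.069 and the chromosomal passenger gene Birc5 0.16 ± 0.068. In S phase, 3 of 23 replication genes were higher and the median was 0.11. That count was 1 without Saline 2-1 and 7 without the pup Poly I:C 1-3. Leaving out the first Poly I:C litter gave 11 and leaving out the other 0. The replicative helicase genes Mcm3 and Mcm4 gave 0.21 ± 0.090 and 0.17 ± 0.074, and Mcm4 was near Saline in MAM (0.004) but not in Low Protein (0.19) or Poly I:C (0.32).

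Of 9 neurogenic genes 3 were higher, with a median of 0.15. Without Saline 2-1 there were 1 and a median of 0.082, and without Poly I:C litter 2 there were 0. The 3 were Neurod1 (0.23 ± 0.11), which drives neuronal differentiation, its upstream relative Neurog1 (0.42 ± 0.19) and the matrix protein gene Mfap4 (0.25 ± 0.093). Radial glia genes had a median of -0.0053 over 15 genes, 6 of them above and 9 under 0. Within that list the outer radial glia marker Hopx was 0.34 ± 0.10, at 1.10 to 2.19 TPM (median 1.91) in Saline and 1.81 to 2.81 TPM (median 2.25) in treated pups, and the Notch target Hes1 was 0.22 ± 0.090, the opposite side from its relative Hes7. The Wnt modulator gene Dact3 was -0.22 ± 0.060.

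The 80 cytosolic ribosomal protein genes had a median of 0.091, with 11 higher at the unadjusted threshold (2.37% over all genes) and 0 lower, and the treatment medians were 0.089 in MAM, 0.038 in Poly I:C and 0.16 in Low Protein. The count of 11 was 28 without Poly I:C litter 1, 3 without Poly I:C litter 2, 2 with litter means and 20 with Eif2s3y as a covariate. Many of these genes have near-identical pseudogenes that can share reads, so their single values are uncertain. Rps21 had the largest difference, 0.31 ± 0.12, with 0.55 in MAM, 0.16 in Poly I:C and 0.22 in Low Protein, and Rps19 gave 0.21 ± 0.067. Genes of mitochondrial ribosomes (median 0.029 over 69 genes, 4 higher, Mrpl55 among them) and of oxidative phosphorylation (median 0.010 over 74 genes, 2 higher) lay near 0.

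Immediate early genes, which neurons switch on with activity, had a median of 0.0032 over 20 genes, with 5 lower and 0 higher. Those 5 were Egr3, Egr1, Nr4a1, Nab2 and Dusp1, the phosphatase described above. Egr3 ran from 0.563 to 0.934 TPM with a median of 0.695 in Saline and 0.303 to 0.836 TPM with a median of 0.492 in treated pups (-0.50 ± 0.15), Egr1 gave -0.52 ± 0.17, Nr4a1 -0.34 ± 0.13 and Nab2, which represses Egr factors, -0.18 ± 0.056. Fos was on the other side at 0.21 ± 0.16 with a level of 0.236 TPM in Saline. Hypoxia genes had a median of -0.049 and 4 of 19 lower (2 without Poly I:C litter 2), among them Pfkfb4 (-0.22 ± 0.072) and the carbonic anhydrase gene Car9 (-0.42 ± 0.15).

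Genes of the oligodendrocyte lineage had a median of -0.18, with 3 of 9 lower, and -0.14 with 1 lower without Saline 2-1. Sox10, the factor that defines the lineage, gave -0.45 ± 0.15, its highest level of 0.993 TPM being that of Saline 2-1, and Gpr17 and Olig1 gave -0.50 ± 0.22 and -0.35 ± 0.15. In astrocyte genes 2 of 9 were lower, Aldh1l1 (-0.38 ± 0.15) and Aqp4 (-0.43 ± 0.21), and in Cajal-Retzius cells 1 of 5, Reln (-0.27 ± 0.13). Without Saline 2-1 both counts were 0. The median of 11 microglial genes was 0.16, and 0.087 without Saline 2-1. Of 9 blood genes 1 was higher, the embryonic globin gene Hbe1 (0.59 ± 0.26), and the summed level of blood genes overlapped widely between groups, at 1927 to 4674 TPM in Low Protein and 2086 to 3608 TPM in Saline. With litter means as the samples 438 of 9713 genes were lower at the unadjusted threshold. Among them were 11 of 16 ventral forebrain, 5 of 9 oligodendrocyte, 4 of 18 synaptic, 3 of 18 cytoskeletal and 2 of 14 receptor genes. The mean of Saline litter 2 holds Saline 2-1. In the fit of pups without Saline 2-1, 1 of 16 ventral forebrain genes was lower. With pups as the samples, counts at the unadjusted threshold were 0 in both directions for thalamus, choroid plexus, meninges, endothelium, the proteasome and NRF2 antioxidant genes.

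Some genes with a pooled difference near 0 differed among the treatments. A moderated F test in limma, which does not use the Saline level, found 42 genes (0.432%) that differed among the 3 treatments at an adjusted p under 0.05. Their median absolute pooled difference was 0.042, and 7 of 42 were at an unadjusted p under 0.05 in the pooled contrast. MAM was the lowest of the 3 in 26 genes and Poly I:C the highest in 22, and in 27 genes MAM lay below and Poly I:C above Saline. Medians over all 9713 genes had the same order, at -0.063 (MAM), -0.010 (Low Protein) and 0.0099 (Poly I:C). How many of the 9713 genes share that order was not counted, so it cannot be called a trait of the 42. Leaving out 1 library or litter moved the number of genes that passed this F test. The number went from 122 without Low Protein litter 2 and 109 without Saline 2-1 to 1 (Cdkn1a) without MAM litter 2. Litter means as samples gave 2, Eif2s3y and Ddx3, neither of them among the 42.

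The chaperone genes Hspa5, Hspa8, Hsph1 and Hspa9 were among these, each lowest in MAM and highest in Poly I:C. Hspa5, the main Hsp70 of the endoplasmic reticulum, ran from 34.8 to 44.3 TPM with a median of 40.2 in Saline, 31.1 to 37.1 TPM (median 33.6) in MAM, 42.2 to 56.9 TPM (median 45.2) in Poly I:C and 35.1 to 41.2 TPM (median 40.5) in Low Protein. All 6 MAM pups lay under all 6 Poly I:C pups. The differences from Saline were -0.23 in MAM, 0.26 in Poly I:C and -0.0007 in Low Protein (each ± 0.076, SE), so that the pooled value was 0.0081, and the treatments differed at a limma adjusted p of 0.00783. Hspa8, the constitutive Hsp70 of the cytosol, ran from 722 to 885 TPM with a median of 809 in MAM, 875 to 945 TPM (median 913) in Saline and 938 to 1123 TPM (median 999.6) in Poly I:C (adjusted p = 0.0198). Its partner Hsph1 of the Hsp110 family gave -0.28 in MAM, 0.17 in Poly I:C and -0.050 in Low Protein (adjusted p = 0.0343), and the mitochondrial Hsp70 gene Hspa9 gave -0.19 in MAM, 0.11 in Poly I:C and 0.076 in Low Protein (adjusted p = 0.0499). Rbm3, an RNA-binding protein induced by mild cold, went the other way, with 21.1 to 28.4 TPM (median 24.3) in MAM, 20.5 to 23.1 TPM (median 22.0) in Saline and 13.9 to 20.9 TPM (median 17.0) in Poly I:C (adjusted p = 0.00783). Of 10 tested heat shock and cold-responsive genes 3 passed the test among treatments, namely Hspa8, Hsph1 and Rbm3. Another member, Hspe1, had the opposite order to the chaperones above. It gave 0.36 in MAM, 0.12 in Poly I:C and 0.18 in Low Protein and did not pass (adjusted p = 0.320). Over the list of 17 endoplasmic reticulum chaperones the median was -0.10 in MAM, 0.13 in Poly I:C and 0.038 in Low Protein, and 1 of 17, Hspa5, passed the test among treatments.

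The promoters of Hspa5, Hspa8 and Hsph1 are shown because these genes differed among the treatments in 1 order and hold short motifs that their known regulators bind. The sequences printed are the 250 bases before the start on the plus strand, from RefSeq on the GRCr8 build. Capitals mark, in Hspa5, the endoplasmic reticulum stress element (CCAAT and CCACG with 9 bases between them) and, in Hspa8 and Hsph1, the heat shock element GAANNTTC. Both were searched on both strands of whole promoter windows, which in these genes were longer than the part printed.
Hspa5, chr3:38452766-38453015: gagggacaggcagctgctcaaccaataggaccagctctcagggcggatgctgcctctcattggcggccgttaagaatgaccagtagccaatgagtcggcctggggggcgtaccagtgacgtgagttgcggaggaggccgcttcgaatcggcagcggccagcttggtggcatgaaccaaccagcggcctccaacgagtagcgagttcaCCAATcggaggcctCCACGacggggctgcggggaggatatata
Hspa8, chr8:50080264-50080513: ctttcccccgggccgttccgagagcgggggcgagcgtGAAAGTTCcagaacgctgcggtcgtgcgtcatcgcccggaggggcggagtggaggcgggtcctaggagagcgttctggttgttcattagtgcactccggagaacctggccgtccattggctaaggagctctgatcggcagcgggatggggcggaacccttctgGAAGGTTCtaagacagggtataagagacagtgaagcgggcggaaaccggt
Hsph1, chr12:10427118-10427367: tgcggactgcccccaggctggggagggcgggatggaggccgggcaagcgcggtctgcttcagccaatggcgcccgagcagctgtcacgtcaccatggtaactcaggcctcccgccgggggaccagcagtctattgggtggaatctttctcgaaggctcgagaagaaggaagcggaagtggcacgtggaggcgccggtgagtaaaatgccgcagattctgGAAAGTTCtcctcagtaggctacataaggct
The element in Hspa5 begins 43 bases before the start, and this element is in 21 of 27457 promoter windows of the table (0.0765%). The heat shock element begins 213 and 50 bases before the start in Hspa8 and 31 bases before it in Hsph1. It is in 8.34% of all promoter windows, in 6 of the 30 windows (20.0%) matched to the 42 genes, and in 3 of the 4 chaperones, Hspa9 being the other one with it. A match describes these letters and not a bound site.

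The factor ATF4 switches on genes of amino acid supply and tRNA charging when amino acids are scarce. Of 25 tested genes of that response 4 (Psat1, Mthfd2, Nars and Gars) passed the test among treatments, and each was highest in Low Protein and lowest in MAM. The list of 25 genes had a median of -0.067 in MAM, 0.066 in Poly I:C and 0.24 in Low Protein, and its pooled median of 0.097 averages these unlike values. All genes tested had a median of -0.063 in MAM, 0.0099 in Poly I:C and -0.010 in Low Protein. The list median in MAM was thus near that of all genes. Without the Low Protein pups the pooled median was -0.0024. Psat1, of serine synthesis, ran from 1.63 to 1.92 TPM with a median of 1.78 in Saline and 2.10 to 3.08 TPM (median 2.38) in Low Protein, where all 6 pups lay above Saline, against 1.56 to 1.96 TPM (median 1.68) in MAM and 1.64 to 2.61 TPM (median 2.07) in Poly I:C (adjusted p among treatments = 0.0499). Mthfd2, of mitochondrial folate metabolism, gave -0.14 in MAM, 0.17 in Poly I:C and 0.26 in Low Protein (adjusted p = 0.00947). Outside the list, the leucyl-tRNA synthetase gene Lars ran from 1.15 to 1.41 TPM with a median of 1.31 in Low Protein and 0.915 to 1.000 TPM with a median of 0.967 in MAM, without overlap, and 0.952 to 1.29 TPM (median 1.12) in Saline (adjusted p = 0.00783). The synthetase genes Tars, Nars and Gars had the same order, with differences from Saline of 0.18, 0.16 and 0.13 in Low Protein and -0.16, -0.16 and -0.13 in MAM (adjusted p = 0.00783, 0.046 and 0.0499). Sesn2, which senses leucine and is a target of both ATF4 and p53, had a positive difference in each treatment (0.41 in MAM, 0.25 in Poly I:C and 0.42 in Low Protein), with 14 of 18 treated pups above the Saline range.

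Among p53 targets, Cdkn1a, the inhibitor of cyclin-dependent kinases, set MAM apart. It ran from 1.00 to 1.21 TPM with a median of 1.16 in MAM, with no overlap with any other group, against 0.412 to 0.612 TPM (median 0.585) in Low Protein, 0.386 to 0.744 TPM (median 0.586) in Poly I:C and 0.492 to 0.626 TPM (median 0.577) in Saline. Cdkn1a rose in MAM by 0.99 ± 0.12 on the log2 scale (limma adjusted p = 0.000267), and the test among treatments gave an adjusted p of 5.72e-05, the lowest of all genes. Its pooled difference of 0.31 was -0.033 without the MAM pups. Aen rose in MAM by 0.35 ± 0.059 (adjusted p = 0.0225), with 2.11 to 2.36 TPM (median 2.17) in MAM and 1.53 to 1.94 TPM (median 1.73) in Saline, and Phlda3, which restrains Akt, gave 0.55 in MAM, -0.17 in Poly I:C and -0.22 in Low Protein (adjusted p among treatments = 0.046). Of 16 tested p53 targets 2, Cdkn1a and Phlda3, passed the test among treatments, and Mdm2 was -0.11 and Ccng1 0.13 in MAM (each ± 0.061 and ± 0.074).

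Among interferon-stimulated genes, Bst2, a membrane protein that tethers budding viruses, had its highest levels in Poly I:C. It ran from 0.402 to 1.22 TPM with a median of 0.914 in Poly I:C, 0.320 to 0.583 TPM (median 0.380) in Saline, 0.280 to 0.562 TPM (median 0.322) in Low Protein and 0.275 to 0.471 TPM (median 0.396) in MAM, a difference from Saline of -0.039 in MAM, 0.95 in Poly I:C and -0.14 in Low Protein (adjusted p among treatments = 0.0353). The Poly I:C mean was 0.635 TPM in litter 1 and 0.954 TPM in litter 2. The 11 tested genes of that list had a median of 0.32 in Poly I:C against 0.092 in Low Protein and 0.028 in MAM, and 13 of 24 were under the filter on low levels. Psmb9 was the member with the lowest pooled p and lay above Saline in each treatment (0.38 in MAM, 0.42 in Poly I:C and 0.27 in Low Protein).

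Other genes that differed among treatments were Rdh13, a retinol dehydrogenase gene of mitochondria (-0.21 in MAM, 0.25 in Poly I:C and -0.10 in Low Protein), Slc15a4, a lysosomal peptide and histidine transporter gene (-0.083 in MAM, 0.21 in Poly I:C and -0.16 in Low Protein), and Ndufs1, a core subunit of complex I (-0.25 in MAM, 0.076 in Poly I:C and 0.057 in Low Protein). Limma adjusted p-values were 0.00555, 0.00783 and 0.0353. All 6 Poly I:C pups lay above all 6 Low Protein and all 6 MAM pups in Rdh13, at 0.253 to 0.313 TPM (median 0.293), and the same held for Slc15a4.

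**Figure D4:**
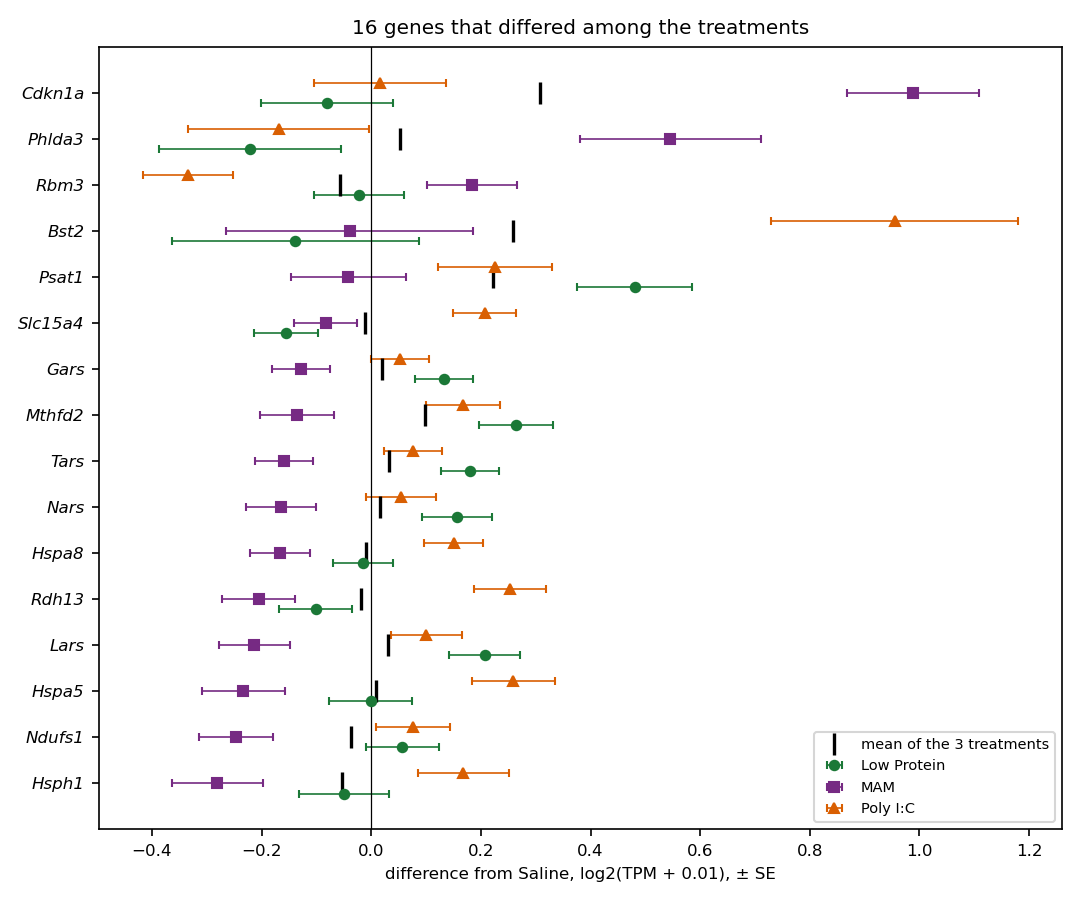
Difference from Saline (log2 of TPM + 0.01 ± SE, horizontal axis) of 16 named genes that differed among treatments, 1 marker per treatment, ordered by MAM; black bars are the mean of the 3. In most genes the bar lies near 0 while the treatments lie on both sides of it; Cdkn1a (0.99 in MAM) and Bst2 (0.95 in Poly I:C) have a positive mean and 1 treatment far from Saline.

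The pooled differences also varied with the genomic span of the gene. Over 5 bins of genes of equal number, from the shortest to the longest span, the number higher at the unadjusted threshold went from 84 to 8 and the number lower from 103 to 187. The median difference in the bin of longest genes was -0.12 in MAM, 0.0053 in Poly I:C and -0.053 in Low Protein, against 0.0012, -0.0035 and 0.012 in the bin of shortest genes. After a curve on span had been subtracted in each pup, the synaptic list had a median of -0.14 with 8 of 18 lower, the receptor list -0.13 with 4 of 14, the cytoskeletal list -0.11 with 3 of 18, and the mitotic list 0.17 with 12 of 19 higher.

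**Figure D5:**
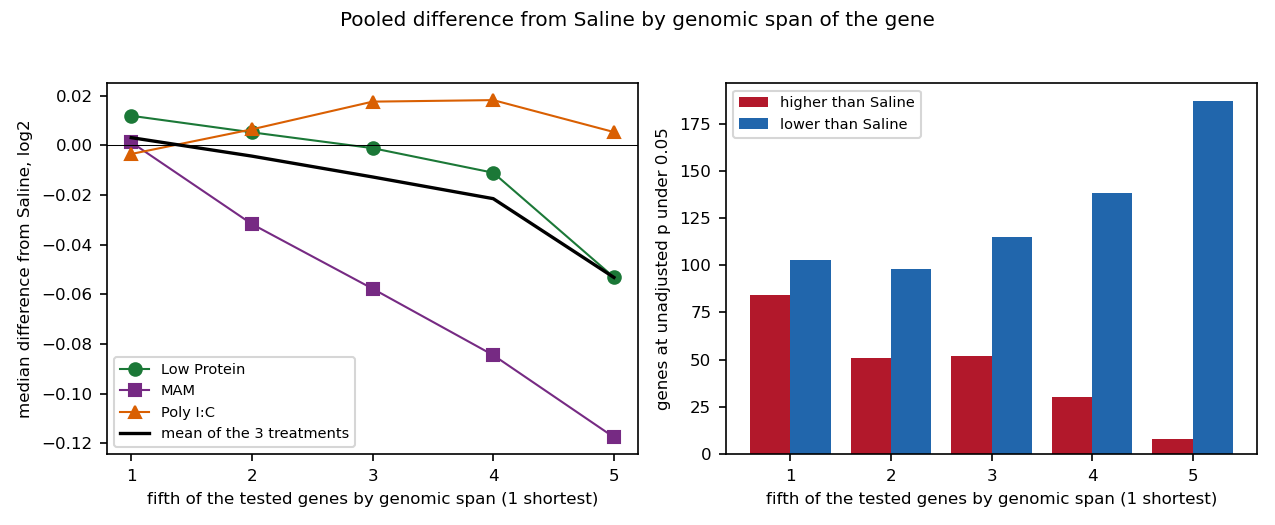
Left, median difference from Saline (log2) in 5 equal bins of the tested genes by genomic span for the 3 treatments, and median pooled difference (black). Right, number of genes higher and lower than Saline at an unadjusted p under 0.05 in the pooled contrast. The lower genes outnumber the higher most in the bin of longest genes (187 against 8), and the MAM median there is -0.12.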

How the data were processed

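RNA was sequenced from neocortex and hippocampus of 24 rat pups, 6 per group, and each sample was put in its group by its title, whose number gives litter and pup. The deposited values are TPM made by the authors: per the submitters' processing notes and the study's methods, trimmed reads were aligned with STAR 2.4.1d to rn6 and assigned to RefSeq transcripts by expectation maximisation in Partek Flow, with 0.0001 added to each value. The fit used log2(TPM + 0.01), so differences of low genes are understated. Genes with a mean of at least 0.1 TPM in each group (9713 of 17420) entered a model of 4 group means in limma 3.58.1 (R 4.3.3), with a contrast giving each treatment equal weight, a contrast of each treatment with Saline and a moderated F test among treatments. P-values were adjusted by Benjamini-Hochberg over 9713 genes and called under 0.05. An unadjusted threshold of 0.05 served for description. For named genes, pups and litters were also compared by exact two-sided permutation, without correction over genes.

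TPM keep no read counts. Low values times the genomic span of the gene were whole multiples of a step, within 0.05, in 45.9 to 51.4% of cases. The values thus appear scaled to genomic span, introns included, rather than to transcript length. Depth is approximate, and no count model or counting interval was used. Each column summed to 70350.1, less than TPM over all transcripts would give, and 20.9% of values were at the added offset (54 values in tested genes). Genomic spans and promoters came from RefSeq GRCr8 by symbol (97.5% of genes matched) and no rn6 coordinates were used.

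Named genes were the 12 lowest p-values on each side, up to 3 members of each list by p, and the 6 lowest p-values among treatments. Further list members, genes among the 42 and genes with most pups outside Saline were named after their values were seen. Members and lists were chosen with earlier results of these data known. Symbols of loci without a name, date-like symbols and duplicate symbols (268 tested genes) were counted but not named, and some named-gene results are not reported here. Alternatives covered pseudocount, filter, scaling, gene span, litter, sex, replicate number and leaving out pups or litters. The fit was tested on simulated data with known changes.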

Additional observations from a re-analysis of the deposited data

Results flagged for a closer look

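Single pups far from the rest of their group were found in 16 of 396 groups checked over 99 named genes. The measure is the gap between the extreme pup and its neighbour divided by the range of the group, set against Dixon's limit for 6 pups, which chance passes in about 1 group of 20. Saline 2-1 accounted for 5 of the 16, lowest in Lhx2 (0.756), Hopx (0.67), Mfap4 (0.689) and Neurod1 (0.728) and highest in Sox10 (0.647). The other Saline pups were Saline 1-2 in Lysmd2 (0.785) and Saline 1-3 in Neu1 (0.762). In Low Protein they were pup 1-3 in Mrpl55 (0.648), Accs (0.674) and Hspa5 (0.766), pup 2-1 in Neu1 (0.815), pup 2-3 in Mcm4 (0.668) and pup 1-2 in Syn1 (0.642). In MAM they were pup 2-1 in Bid (0.712) and pup 2-3 in Dusp1 (0.704), and in Poly I:C pup 2-2 in Syn2 (0.687).

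Differences among the treatments, tested as such with limma's moderated F test, passed an adjusted p of 0.05 in 17 named genes. The adjusted p was 5.72e-05 for Cdkn1a, 0.00555 for Rdh13, 0.00783 for Lars, Slc15a4, Tars, Hspa5 and Rbm3, and 0.00947 for Mthfd2. It was 0.0198 for Hspa8, 0.0343 for Hsph1, 0.0353 for Bst2 and Ndufs1, 0.046 for Nars and Phlda3, and 0.0499 for Gars, Psat1 and Hspa9.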

How the results depend on the processing

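Of 51 alternatives, 49 left the pooled count at 0 genes. The exceptions were litter means, with 2 genes, and leaving out Poly I:C litter 1, with 9. Leaving out pups in turn gave 0 to 0 called genes, 665 (Saline 2-1) to 1141 (Poly I:C 1-1) genes at the unadjusted threshold, and 15 (MAM 1-1 or MAM 2-2) to 109 (Saline 2-1) genes differing among treatments. Leaving out litters in turn gave 0 to 9, 462 (Saline litter 1) to 1714 (Poly I:C litter 1), and 1 (MAM litter 2) to 122 (Low Protein litter 2). The 875 unadjusted genes became 466 with a filter above 1 TPM, where fewer genes are tested, and 559 with litter means. The 42 genes differing among treatments became 80 with a pseudocount of 1, 2 with litter means, 25 with litter as a random effect, 114 with Eif2s3y as a covariate and 107 without both Saline 2-1 and Poly I:C 1-3, an alternative chosen after seeing the data. The cause was not tested. Of the 42, 40 were among the 80 and all 42 among the 114. Of 85 named pooled differences 1 reversed, Cdkn1a at -0.033 without MAM pups. None of the 85 passed correction with all pups, so no call could be lost. For the 16 named differences among treatments, 204 of 744 lost the call. Of 1679 list medians 11 moved by more than the spread between pups.

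Replicate numbers recur in every group. With a replicate block the counts were 0, 1088 and 36. Same-numbered pups of different groups correlated at -0.304 to 0.422 (median 0.080, 36 pairs), against a median of -0.00049 for pups with other numbers. In 10 of 24 pups the best correlation was with their own number. Such pups come from different dams, and the main fit did not treat the numbers as a pairing. Whether the numbers carry a shared effect was not tested. The 6 pups from 2 litters per group limit what can be detected, and depth is approximate.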
